A study of Mus musculus with 6 samples.

Results

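The genes described here encode intermediate filament proteins: the keratins Krt8 and Krt18, vimentin (Vim), nestin (Nes), alpha-internexin (Ina) and the nuclear lamins Lmna, Lmnb1 and Lmnb2. They were picked by symbol for being in the deposited table, and all 8 of 8 are among its 6532 genes. The set was chosen by name with the siPKM over siCtrl values of Krt8, Krt18, Vim, Nes and Ina in RNA and footprints already known, so those values are given as a description, with no test. The study asked what happens to messages and their ribosomes when pyruvate kinase M, the enzyme of the last step of glycolysis, is depleted from E14 cells, an established mouse embryonic stem cell line, and which RNAs the enzyme touches. Wild-type E14 cells received a pool of siRNAs against both PKM isoforms (siPKM) or a non-targeting pool (siCtrl), each at 20 nM for 36 h with a passage 16 h before harvest. Each condition gave 1 RNA-seq library, depleted of rRNA, and 1 library of ribosome footprints (RPF, ribosome-protected fragments). The cells were kept on gelatin in serum with LIF, and footprints were cut with RNase A and T1 after a short cycloheximide treatment. The last 2 libraries are FAST-iCLIP replicates from E14 cells carrying FLAG-HA-tagged PKM2, UV-crosslinked at 0.35 J per square cm, with no CLIP library of untagged cells among the samples analysed here.

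Intermediate filaments are built from coiled-coil dimers that assemble side by side and end to end into ropes without polarity. In the cytoplasm, Krt8 and Krt18 pair as the obligate partners of simple epithelia, Vim forms the filaments of mesenchymal and many cultured cells, Nes joins Vim in neural progenitors, and Ina joins the neurofilament subunits in neurons. Inside the nuclear envelope, the A-type and B-type lamins form the meshwork that carries the nuclear membrane, and B-type lamins are the main ones in embryonic stem cells. A keratin without its partner is degraded, so the levels of both partners are usually read together.

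The libraries held 10349212 CDS reads for siPKM RNA, 12111993 for siCtrl RNA, 12545485 for siPKM RPF and 15175242 for siCtrl RPF. CDS here means the coding sequence without its first 15 and last 5 codons. The CLIP replicates held 677534 and 670508 reverse transcription stops. The targeted gene, Pkm2 in the table, had 1582 CPM, that is CDS reads scaled to the library sum, in siPKM RNA against 5024 CPM in siCtrl RNA and 1683 CPM in siPKM RPF against 5311 CPM in siCtrl RPF. Of the 15 stem cell markers listed, 14 were in the table, including Pou5f1 and Sox2, and Nanog was not. With 1 library a condition, differences between siPKM and siCtrl have no replicate check and no test was made. Intervals below are 95% intervals from the read counts and cover counting error only, and a gene was called higher or lower where it was at least 1.5-fold apart.

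Promoters of the cytoplasmic members are shown because both keratins and Vim lay above the median gene in RNA and RPF after knockdown, and Nes and Ina below it. The sequences are RefSeq windows of build GRCm38.p6, whereas the reads were mapped to mm9. Each line gives 30 bases, and capitals mark the exact letters TATAA, while near matches are not marked. These letters are the core of the element that positions transcription at many regulated promoters. Whether any match here acts as that element was not tested.
Krt8, chr15:102004327-102004356, minus strand: tggcctcttctttTATAAagggccttcgct
Krt18, chr15:102028184-102028213, plus strand: cctcccgcggcgaTATAAcaacaggtcgag
Vim, chr2:13574266-13574295, plus strand: ttcctaacagtgtTATAAaagcagcgccct
Nes, chr3:87971053-87971082, plus strand: aataccctcgcttcagctcgctgctggaat
Ina, chr19:47014641-47014670, plus strand: caaccccgcgccttaaaagccccgcacacc
For Nes and Ina the bases run from -40 to -11 relative to the annotated gene start. TATAA was searched on both strands in 250 bases before and 50 bases after each start, and its reverse complement TTATA overlaps it in Krt8 and Vim. The motif begins at -1 in Krt8, at -19 in Krt18 and at -32 in Vim, counted from the annotated start. Windows of 7 of the 8 genes were searched, and Lmnb1 was left out of the search, so its promoter is not described. Of the 7 genes searched, 3 held the motif, against 28.0% of the 27025 genes with a window. The match describes letters in a window and was looked for after the expression values were known. The genes printed were picked by those values, and any part of the motif in them was not tested.

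Both keratins had a higher CPM after knockdown, and Krt8 was the member called higher in RNA and in RPF. Krt8 (NM_031170), the type II partner, had 34.3 CPM (355 reads) in siPKM RNA against 22.1 CPM (268 reads) in siCtrl RNA. Its footprints stood at 41.8 CPM (525 reads) in siPKM against 22.5 CPM (341 reads) in siCtrl. The intervals of the siPKM and siCtrl libraries do not overlap for Krt8 in either kind of library. Relative to the median gene, the log2 ratio of siPKM over siCtrl was 0.59 (0.35 to 0.82) in RNA and 0.87 (0.68 to 1.08) in RPF. The RNA value lies at the edge of the 1.5-fold call, where Krt8 is the last of the 188 genes past it. With 5 reads added in place of 0.5 the RNA value was 0.58 and the call was lost. In RPF, Krt8 ranked 41 from the top. RefSeq lists a pseudogene, Krt8-ps, and how reads shared with such copies were counted is not given, so the Krt8 counts are uncertain to that extent.

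Krt18 (NM_010664), the type I partner of Krt8, had 23.8 CPM (246 reads) in siPKM RNA against 17.8 CPM (216 reads) in siCtrl RNA. Krt18 footprints stood at 26.0 CPM (326 reads) in siPKM and 20.5 CPM (311 reads) in siCtrl. The Krt18 ratio was 0.37 (0.10 to 0.64) for RNA and 0.32 (0.09 to 0.55) for RPF, on the same side of 0 as its partner and short of 1.5-fold. Krt8 exceeded Krt18 by 0.55 (0.26 to 0.85) in RPF, and in RNA by 0.22 (-0.13 to 0.57), which counting error does not separate from 0.

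Vimentin and nestin, which can share filaments, lay on opposite sides of the median gene. Vim (NM_011701) had 304 CPM (3151 reads) in siPKM RNA against 229 CPM (2777 reads) in siCtrl RNA. Its footprints reached 536 CPM (6730 reads) in siPKM against 394 CPM (5984 reads) in siCtrl. The Vim log2 ratios of 0.36 (0.29 to 0.44) in RNA and 0.42 (0.37 to 0.47) in RPF are tightly bounded by counting and stay below 1.5-fold. Nes (NM_016701), a long filament protein of neural progenitors, had 48.7 CPM (504 reads) in siPKM RNA against 68.4 CPM (829 reads) in siCtrl RNA. For footprints of Nes the values were 22.3 CPM (280 reads) in siPKM and 36.4 CPM (552 reads) in siCtrl. The Nes log2 ratio was -0.54 (-0.70 to -0.38) in RNA, inside 1.5-fold, and -0.72 (-0.94 to -0.52) in RPF, which is a call.

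Alpha-internexin was the lowest member in both kinds of library. Ina (NM_146100), the neuronal filament subunit, had 20.7 CPM (214 reads) in siPKM RNA against 35.1 CPM (425 reads) in siCtrl RNA. Its footprints stood at 53.2 CPM (667 reads) in siPKM against 124 CPM (1882 reads) in siCtrl. The siPKM and siCtrl intervals do not overlap in either. The log2 ratio was -0.81 (-1.05 to -0.57) in RNA, or 1.75-fold lower, and -1.24 (-1.37 to -1.12) in RPF, where Ina ranked 3 from the bottom of the 6532 genes. Against Nes, Ina was lower by 0.52 (0.27 to 0.76) in RPF, and in RNA the difference of 0.27 (-0.01 to 0.56) was within counting error.

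The B-type lamins lay near the median gene, and Lmna lay below it in RNA without reaching 1.5-fold. Lmnb1 (NM_010721) had 473 CPM (4900 reads) in siPKM RNA against 477 CPM (5780 reads) in siCtrl RNA, and 993 CPM (12456 reads) in siPKM RPF against 1020 CPM (15480 reads) in siCtrl RPF. Lmnb1 is the most deeply counted member, so its log2 ratios of -0.06 (-0.11 to -0.00) in RNA and -0.06 (-0.09 to -0.03) in RPF have the narrowest intervals. Lmnb2 (NM_010722), the other B-type lamin, had 125 CPM (1293 reads) in siPKM RNA against 126 CPM (1528 reads) in siCtrl RNA, and 111 CPM (1395 reads) in siPKM RPF against 108 CPM (1634 reads) in siCtrl RPF. Lmnb2 stood at -0.06 (-0.17 to 0.05) for RNA and 0.03 (-0.08 to 0.13) for RPF. For both B-type lamins a 1.5-fold difference lies outside the counting interval. Lmna (NM_001002011), the A-type lamin, had 33.8 CPM (350 reads) in siPKM RNA against 41.3 CPM (500 reads) in siCtrl RNA, and 45.9 CPM (576 reads) in siPKM RPF against 50.3 CPM (763 reads) in siCtrl RPF. Lmna stood at -0.33 (-0.54 to -0.13) in RNA and -0.15 (-0.31 to 0.01) in RPF. Its row is described as isoform A of prelamin-A/C and whether reads of lamin C enter it is not given in the sources used here.

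**Figure D1:**
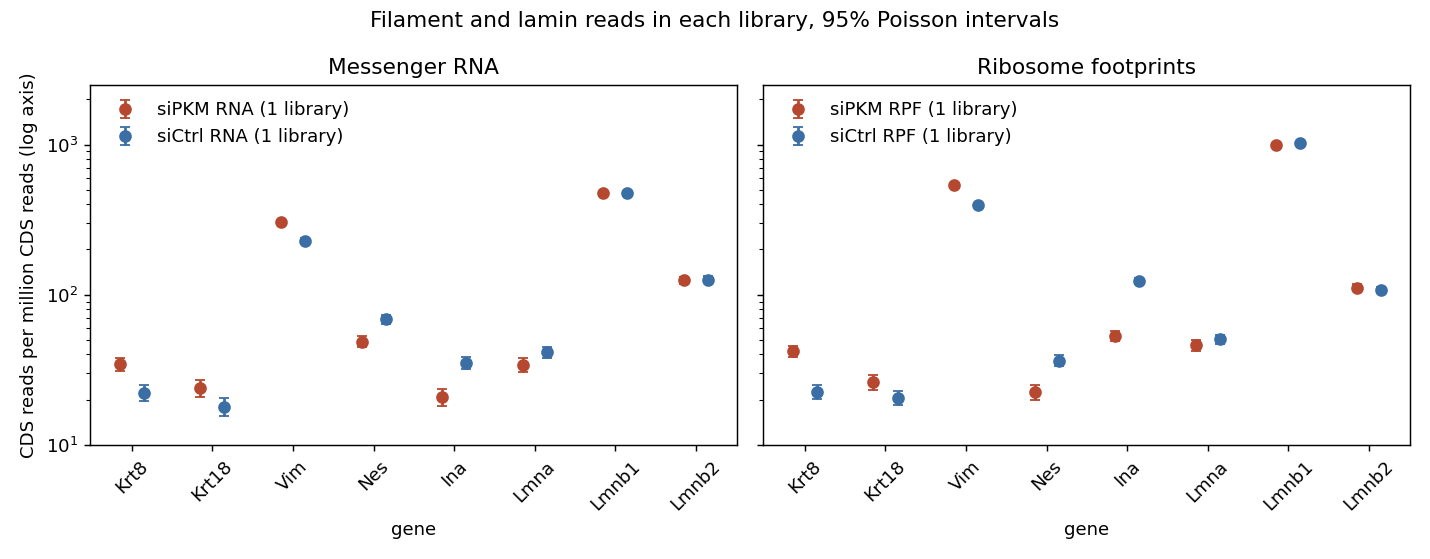
CDS reads scaled to the library sum (CPM, log axis) of each gene in the siPKM and siCtrl libraries, RNA in one panel and RPF in the other, with 95% Poisson intervals and 1 library a point. Values compare within a gene, since they are not divided by length: Ina footprints stand at 53.2 CPM in siPKM and 124 CPM in siCtrl, while both Lmnb1 points nearly coincide.

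Counted together, 1 of 8 members (Krt8) was called higher in RNA and 1 (Ina) lower, where 2.88% of all genes were called higher and 1.24% lower. In RPF, 1 member (Krt8) was called higher against 2.66% of all genes, and 2 (Nes and Ina) were called lower against 1.53%. The member medians were -0.06 in RNA and -0.02 in RPF, beside 0.00 for all genes, with 3 members above 0 in RNA and 4 in RPF. The members were chosen with these values known, so the counts are a description. RNA and RPF of a condition are not stated to come from separate cultures, so a shared sign is no replicate check.

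**Figure D2:**
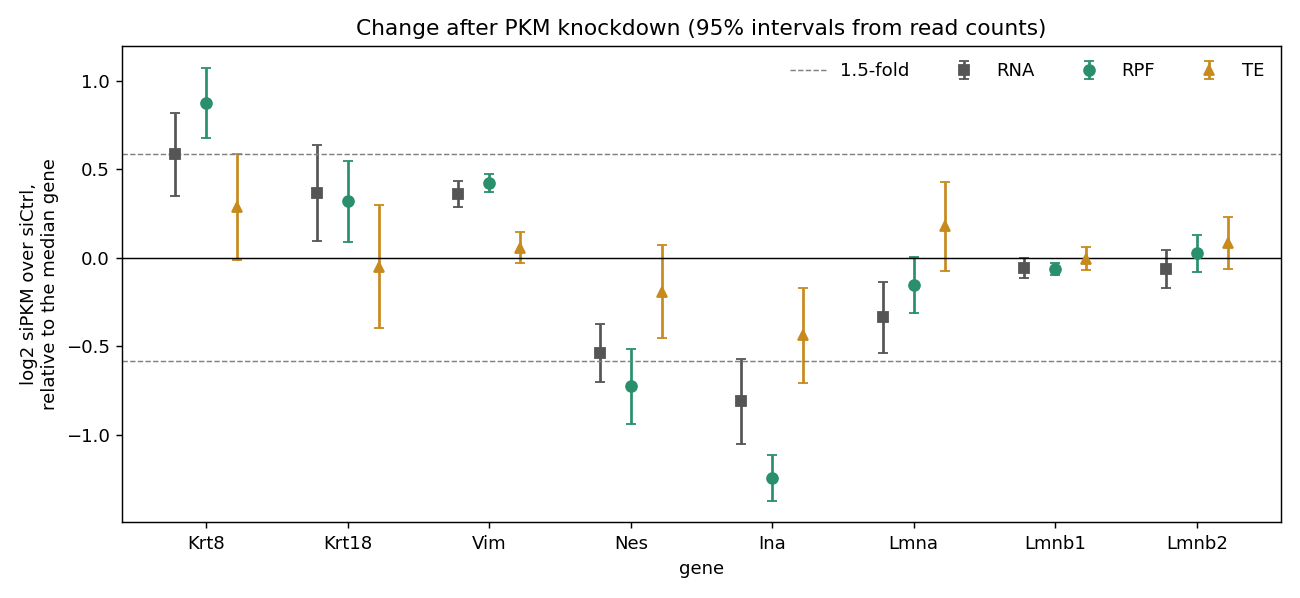
Log2 ratio of siPKM over siCtrl for RNA, RPF and translation efficiency (TE) of each member, relative to the median gene, with 95% intervals from read counts and dashed lines at 1.5-fold. Krt8 at 0.87 and Ina at -1.24 in RPF are the ends of the range, and the B-type lamins lie next to 0.

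Other filament genes of the list were few in the table. Of 21 further intermediate filament symbols, 3 were present: the neurofilament subunits Nefl and Nefh and the type I keratin Krt42. Nefl (light chain) had 405 reads in siPKM RNA against 701 in siCtrl RNA, and stood at -0.61 (-0.79 to -0.43) for RNA and -0.66 (-0.87 to -0.45) for RPF. Nefh (heavy chain) had 410 reads in siPKM RNA against 858 in siCtrl RNA, with ratios of -0.88 (-1.06 to -0.71) and -0.91 (-1.06 to -0.77). Nefl and Nefh, neurofilament chains with which Ina assembles in neurons, were thus called lower in RNA and in RPF, as Ina was. They are 2 of the 3 genes present, beside 1.24% of all genes called lower in RNA and 1.53% in RPF. The listed neurofilament gene Nefm was not in the table. The RNA call of Nefl was lost without centring on the median gene, at -0.56, and with whole transcript reads, at -0.57. Krt42 stood at 0.03 (-0.29 to 0.35) for RNA and -0.10 (-0.41 to 0.21) for RPF. These were bulk cultures, so fewer cells of a type and less RNA per cell cannot be told apart for any of these genes.

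**Figure D3:**
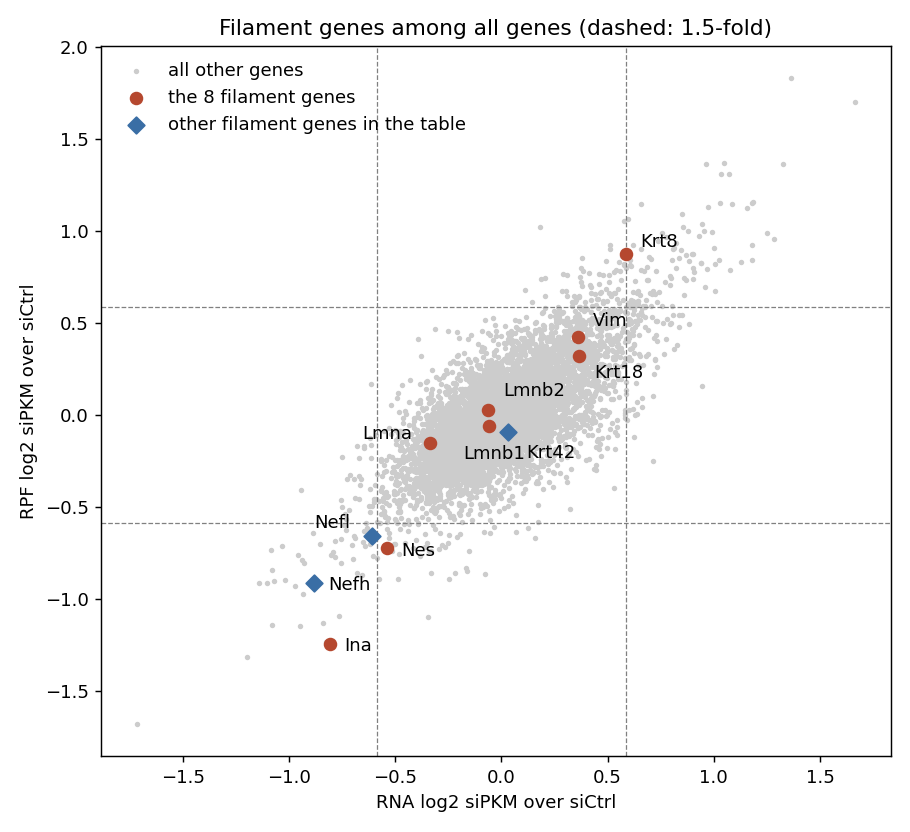
RNA (x axis) against RPF (y axis) log2 ratio of siPKM over siCtrl for all genes (grey), the 8 members (circles) and the other filament genes in the table (diamonds), with dashed lines at 1.5-fold. Ina, Nefh and Nefl lie past both lower lines, Nes past the RPF line alone, and Krt8 sits on the upper RNA line.

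Markers of cell types known to use these filaments were listed as well. Of 13 neural symbols, 5 were in the table, with a summed level of 350 CPM in siPKM RNA against 354 CPM in siCtrl RNA and 642 CPM in siPKM RPF against 648 CPM in siCtrl RPF. Among them the neuronal tubulin Tubb3 was called lower in RNA at -0.64 (-0.78 to -0.50), and the adhesion molecule Ncam1 was called higher at 0.64 (0.37 to 0.92). Most reads of the neural sums came from stathmin-2 (Stmn2), with 2374 in siPKM RNA and 4898 in siPKM RPF. Stmn2 stood at 0.05 in RNA and 0.005 in RPF, so the sums say little about the other neural genes. Of 12 trophoblast symbols, older names included, only the transcription factor Tcfap2c was present, at 25.5 CPM in siPKM RNA against 37.6 CPM in siCtrl RNA and 32.0 CPM in siPKM RPF against 53.5 CPM in siCtrl RPF. Tcfap2c was called lower, at -0.60 (-0.83 to -0.38) in RNA and -0.76 (-0.94 to -0.59) in RPF. Of 15 primitive endoderm symbols, 7 were present, and they summed to 1334 CPM in siPKM RNA against 1093 CPM in siCtrl RNA and 1955 CPM in siPKM RPF against 1650 CPM in siCtrl RPF. In that list 2 of the 7 genes, Lama1 and Col4a1, were called higher in RNA, beside 2.88% of all genes. In RPF 3, with Col4a2, were called higher, beside 2.66%. Lamb1 lay on the other side, at -0.24 (-0.30 to -0.18) in RNA and -0.13 (-0.18 to -0.07) in RPF. The listed transcription factors Gata4, Gata6, Sox17 and Sox7 were not in the table. Of 14 mesenchymal symbols only fibronectin (Fn1) was present, at 890 CPM in siPKM RNA against 461 CPM in siCtrl RNA and 3001 CPM in siPKM RPF against 1770 CPM in siCtrl RPF. Fn1 was called higher, at 0.90 (0.85 to 0.95) in RNA and 0.74 (0.72 to 0.76) in RPF. The remaining markers are not analysed here. For the 14 stem cell markers the median was -0.05 (RNA) and -0.10 (RPF), and they summed to 5243 CPM in siPKM RNA against 5356 CPM in siCtrl RNA and 6662 CPM in siPKM RPF against 7080 CPM in siCtrl RPF. Tbx3 was called higher at 1.18 in RNA and 0.84 in RPF, and Klf2 was called lower in RPF at -0.74. The part of any of these in the filament values was not tested.

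The change in TE, obtained by subtracting the RNA value from the RPF value on the log2 scale, asks whether a message carried more or fewer ribosomes after knockdown than the median gene did. No member reached 1.5-fold in either direction (0 of 8), where 0.184% of all genes were called higher and 0.827% lower. Ina came closest, at -0.44 (-0.71 to -0.17), and it is the one member whose interval leaves out 0. Krt8 stood at 0.29 (-0.01 to 0.59), Nes at -0.19 (-0.45 to 0.07) and Lmna at 0.18 (-0.07 to 0.43). Vim at 0.06 (-0.03 to 0.15), Lmnb2 at 0.08 (-0.07 to 0.23), Krt18 at -0.05 (-0.39 to 0.30) and Lmnb1 at -0.01 (-0.07 to 0.06) have intervals on both sides of 0. A TE difference of 1.5-fold lies outside the counting interval of every member except Ina and Krt8.

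Ina also had the highest TE level of the members. Its log2 footprints over RNA, relative to the median gene, was 1.54 (1.31 to 1.76) in siPKM and 2.00 (1.84 to 2.15) in siCtrl, ranked 209 and 118 from the top of all genes. Lmnb1 followed at 1.24 (1.20 to 1.29) in siPKM and 1.27 (1.23 to 1.32) in siCtrl, and Vim at 0.99 (0.93 to 1.05) and 0.96 (0.89 to 1.02). Nes was the lowest by CDS reads, at -0.95 (-1.16 to -0.74) in siPKM and -0.74 (-0.89 to -0.58) in siCtrl. Between them lay Lmna, at 0.62 in siPKM and 0.46 in siCtrl, Krt8 at 0.46 and 0.20, Krt18 at 0.30 and 0.38, and Lmnb2 at 0.01 and -0.05. In siCtrl the order ran Ina, Lmnb1, Vim, Lmna, Krt18, Krt8, Lmnb2, Nes. Counting error does not separate Krt18 from Lmna, with a difference of -0.08 (-0.38 to 0.21), nor Krt8 from Krt18 at -0.18 (-0.52 to 0.16), nor Krt8 from Lmnb2 at 0.25 (-0.00 to 0.50), while the other neighbours are apart. In siPKM, Krt8 stood above Krt18 by 0.16 (-0.15 to 0.47). Both B-type lamins are far apart in TE level, Lmnb1 exceeding Lmnb2 by 1.24 (1.12 to 1.36) in siPKM and 1.32 (1.21 to 1.43) in siCtrl. Counted over whole transcripts, Krt18 stood at 0.74 in siPKM and 0.81 in siCtrl and Lmnb2 at -0.43 and -0.57. Nes then stood at -0.62 in siPKM and -0.37 in siCtrl, so in siCtrl Lmnb2 was the lowest, and the middle and the bottom of the order depend on which regions are counted.

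**Figure D4:**
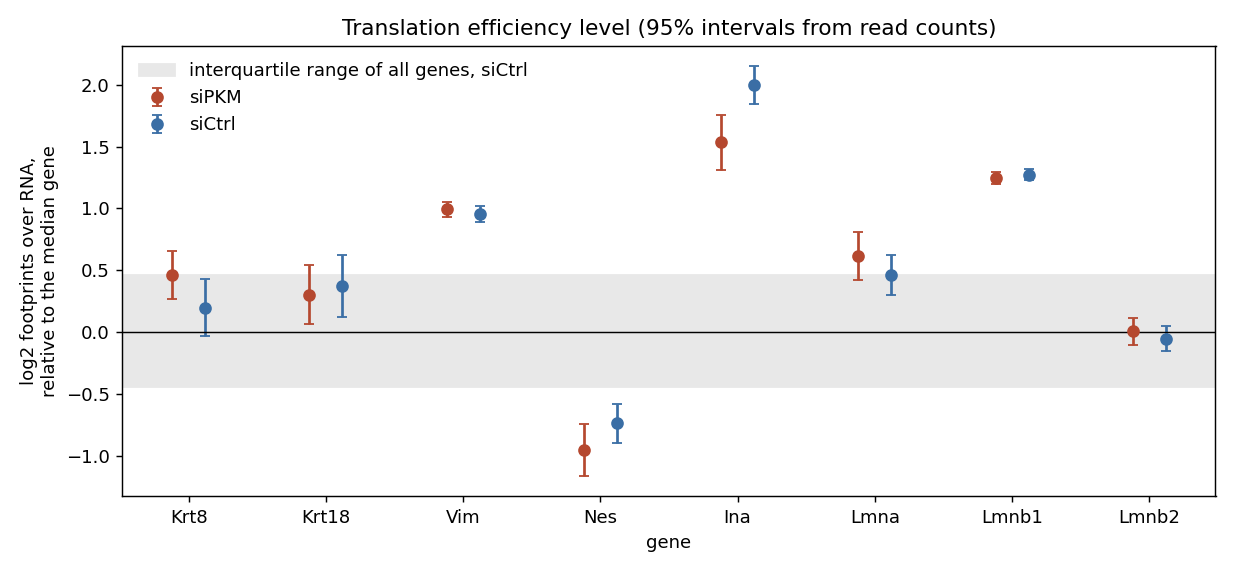
TE level (log2 footprints over RNA, relative to the median gene) of each member in siPKM and siCtrl, with 95% intervals from read counts and the interquartile range of all genes in siCtrl shaded. Ina is highest at 1.54 in siPKM and 2.00 in siCtrl, Nes is lowest by these CDS reads, and the siPKM and siCtrl points of Lmnb1 and Vim nearly coincide.

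Reads along the messages gave another readout of the same rows. Lmnb1 carried 8.68% (8.22 to 9.16) of its footprints in the 5' UTR in siPKM and 9.47% (9.04 to 9.91) in siCtrl, where the median gene had 3.71% and 3.85%. In Lmnb2 the shares were 6.44% (5.26 to 7.79) in siPKM and 5.17% (4.19 to 6.31) in siCtrl, and in Lmna 5.08% (3.50 to 7.10) and 5.50% (4.05 to 7.26). The 5' UTR also held 10.42% of Lmnb1 RNA reads in siPKM and 10.45% in siCtrl, where the median gene had 2.57% and 2.67%. For RNA of Lmnb2 the shares were 2.25% in siPKM and 1.85% in siCtrl, and for RNA of Lmna 10.04% and 9.42%. Ina, Nes and Krt18 had 0 to 3 footprints in the 5' UTR. Ina had 0 of 718 in siPKM, where 3 counts of the total would be 0.418%, and 3 of 2017 in siCtrl. Nes had 0 of 287 in siPKM, where 3 counts would be 1.05%, and 1 of 569 in siCtrl. Krt18 had 1 of 351 in siPKM and 1 of 327 in siCtrl. In total RNA the 3' UTR held 47.8% of Lmnb2 reads in siPKM and 49.5% in siCtrl but 1.82% of Krt18 reads in siPKM and 2.16% in siCtrl, where the median gene had 26.3% and 26.2%. These shares depend on the length of each region and the transcript model, so they compare conditions better than genes.

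Between conditions, 3 of 40 member shares had intervals that do not overlap. Over all genes, RNA shares were so separated in 0.949% (higher in siPKM) and 2.94% (lower) for the 5' UTR, 1.45% and 1.59% for the first 15 codons, and 4.49% and 2.86% for the 3' UTR. Footprint shares were separated in 0.811% (higher in siPKM) and 2.88% (lower) for the 5' UTR and in 1.91% and 2.82% for the first 15 codons. The 5' UTR share of Vim RNA was 7.38% (6.63 to 8.19; 328 reads) in siPKM against 5.10% (4.43 to 5.84; 196 reads) in siCtrl. The same region held 2.71% of Vim footprints in siPKM and 2.71% in siCtrl. The 3' UTR share of Lmnb1 RNA was 19.7% (18.8 to 20.6) in siPKM against 21.7% (20.9 to 22.6) in siCtrl. In Lmnb2 the first 15 codons held 0.854% (0.456 to 1.46; 13 reads) of footprints in siPKM against 2.19% (1.56 to 2.99; 39 reads) in siCtrl. The same region held 1.16% (0.79 to 1.65; 31 reads) of Lmnb2 RNA in siPKM and 1.79% (1.36 to 2.30; 59 reads) in siCtrl. Relative to the CDS ratio, this region of Lmnb2 was lower by log2 values of -1.32 (-2.22 to -0.42) in RPF and -0.68 (-1.31 to -0.04) in RNA. In Krt8 the first 15 codons held 5.94% (4.15 to 8.21; 34 reads) of footprints in siPKM and 2.52% (1.16 to 4.73; 9 reads) in siCtrl, and these intervals overlap. Set against the CDS ratio, the log2 ratio of the first 15 codons of Krt8 was higher by 1.24 (0.18 to 2.29) in RPF and by 1.24 (0.10 to 2.37) in RNA, with 26 RNA reads in siPKM against 8 in siCtrl. In Ina the first 15 codons held 49 footprints in siPKM against 124 in siCtrl, a log2 ratio of -1.08 (-1.59 to -0.60), which differs from that of the rest of the CDS by 0.17 (-0.33 to 0.66). Differences from the CDS ratio also left out 0 elsewhere, as in the 3' UTR of Lmna RNA at 0.74 (0.15 to 1.33). The 5' UTR of Lmnb1 footprints stood at -0.14 (-0.25 to -0.03) and the last 5 codons of Vim RNA at -0.70 (-1.28 to -0.13). These differences were computed for the members only, so no share of all genes stands beside them.

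CLIP marks where PKM2 with its tag was crosslinked to RNA. Among the members, the keratins, Vim and Nes had few stops for their RNA, whereas Ina and the lamins had close to their RNA share. Krt8 had 1 and 2 stops in the replicates and Krt18 had 0 and 2. Summed over both replicates, stops relative to siCtrl RNA came to a ratio of 0.128 (exact Poisson interval 0.0264 to 0.374) for Krt8 and 0.123 (0.0148 to 0.443) for Krt18, where 1 means the same share of stops as of RNA. At this depth the absence of a stop in replicate 1 leaves room for 4.43 CPM. Nes had 8 and 4 stops, a ratio of 0.186 (0.0961 to 0.325), and Vim 54 and 47, a ratio of 0.374 (0.304 to 0.454). The log2 CLIP over siCtrl RNA of Vim was -1.41 ± 0.13 and that of Nes -2.38 ± 0.64 (SD, n = 2).

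Lmnb1 had 338 and 349 stops, or 510 ± 15.3 CPM, and a log2 CLIP over RNA of 0.15 ± 0.04. Lmnb2 had 85 and 85 stops and stood at -0.44 ± 0.01, Lmna 14 and 19 stops at -0.39 ± 0.31, and Ina 29 and 27 stops at 0.35 ± 0.06 (SD, n = 2 each). Ina was the member with the most stops relative to RNA. With siCtrl RPF as the denominator the direction turned for Ina, at -1.44, for Lmnb1, at -0.97, and for Lmnb2, at 0.32. At least 2-fold below RNA in both replicates were 4 of 8 members (Krt8, Krt18, Vim and Nes), against 16.0% of all genes, and 0 were at least 2-fold above, against 24.0%. With 5 counts added in place of 0.5, Vim, at -1.29, and Nes, at -1.58, were still called below, and with siPKM RNA as the denominator Ina was called above at 1.18. No control CLIP library was used here, so background stops are not subtracted.

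**Figure D5:**
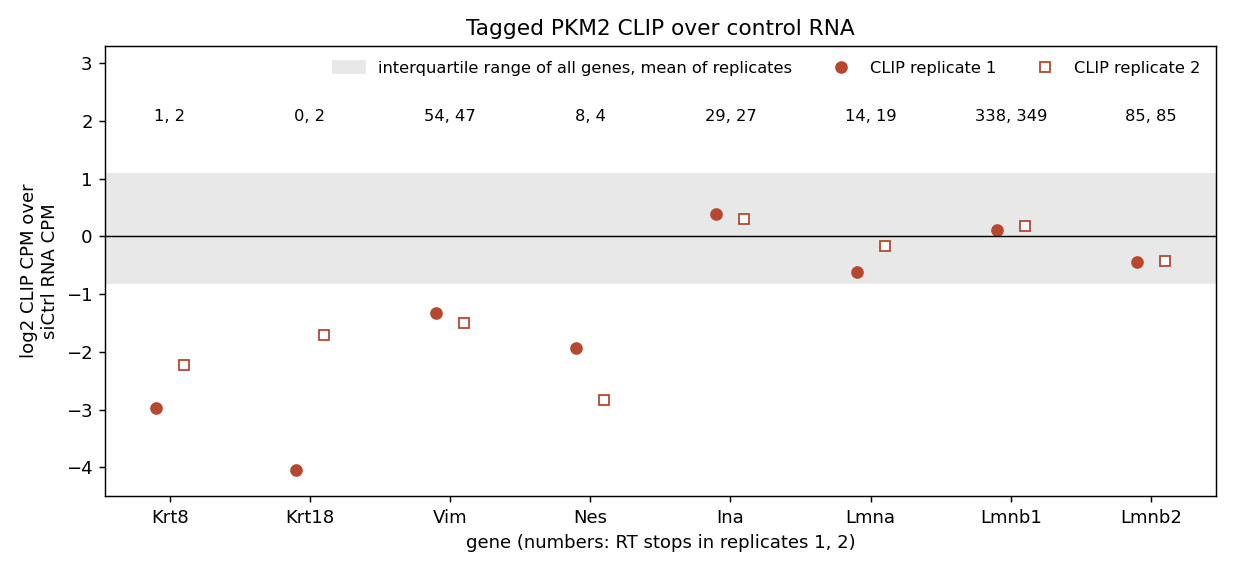
Log2 CLIP over siCtrl RNA of each member in CLIP replicate 1 (filled circles) and replicate 2 (open squares), with the raw stops of both replicates printed above each gene and the interquartile range of all genes shaded. Krt8, Krt18, Vim and Nes lie below the shaded range, and Ina and the lamins lie within it.

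The partners of the cytoplasmic filaments were compared next. Of 20 symbols of filament linkers and desmosome proteins, 11 were in the table, with medians of 0.31 for RNA and 0.04 for RPF. In RNA 0 of 11 were called higher and 1 lower, and in RPF 1 was called higher and 1 lower, beside 2.88% and 1.24% of all genes in RNA and 2.66% and 1.53% in RPF. The desmosomal cadherin Dsg2 was called higher in RPF at 0.65 (0.49 to 0.81), with RNA at 0.51 (0.32 to 0.71), or 0.63 and past the call with whole transcript reads. Desmoplakin (Dsp), which anchors keratins to desmosomes, stood at 0.37 (0.17 to 0.56) in RNA and 0.49 (0.31 to 0.68) in RPF. The plakophilin Pkp2, a plaque protein of the same junctions, was called lower at -0.78 (-0.93 to -0.63) in RNA and -0.77 (-0.91 to -0.64) in RPF. Plectin (Plec), which ties Vim and keratin filaments to other structures, stood at -0.08 (-0.16 to 0.00) in RNA and -0.49 (-0.63 to -0.34) in RPF. In TE, 1 of 11 was called lower, the spectraplakin Macf1 at -0.72 (-0.84 to -0.61), which links actin and microtubules, and 0 were called higher. Of all genes, 0.827% were called lower in TE and 0.184% higher. The linkers had a median log2 CLIP over RNA of 1.74, against 0.07 for all genes. At least 2-fold above RNA in both replicates were 6 of 11, beside 24.0% of all genes, and 0 were below, beside 16.0%.

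The partners of the lamins all lay within 1.5-fold. Of 25 lamina partner symbols 16 were in the table, and 0 of 16 were called in RNA, RPF or TE, although Lemd2 RNA, at 0.56, reached 0.61 and a call without centring. Of all genes, 2.88% were called higher and 1.24% lower in RNA, 2.66% and 1.53% in RPF, and 0.184% and 0.827% in TE. Calls were thus rare over the whole table, and 0 of 16 does not set this list apart. Their medians were 0.09 in RNA, 0.05 in RPF and -0.11 in TE. The highest in RPF was the inner membrane protein Lemd2 at 0.36 (0.05 to 0.68), followed by Sun2, which couples the lamina to the cytoskeleton, at 0.27 (0.01 to 0.53). The lowest were Ankle2 at -0.38 (-0.50 to -0.27) and the nuclear basket protein Nup153 at -0.30 (-0.36 to -0.24). In CLIP 10 of these 16 were at least 2-fold above RNA in both replicates and 1, the nuclear pore protein Nup88 at -1.25, was below, beside 24.0% and 16.0% of all genes. Their CLIP median was 1.31, against 0.07 for all genes. Of 8 symbols for enzymes that prenylate and trim lamins 6 were present, with medians of 0.05 in RNA, 0.10 in RPF and -0.06 in TE. There were 0 calls in any of the 3 measures, beside the low shares of all genes given above for each. Among them the protease Rce1 was highest in RPF at 0.21 (-0.04 to 0.45), then Narf at 0.18 (-0.12 to 0.48). The farnesyltransferase subunits Fntb, at -0.12 (-0.24 to 0.00), and Fnta, at 0.01 (-0.11 to 0.12), were lowest. For CLIP the median of these 6 was 1.34. At least 2-fold above RNA in both replicates were 4, and 1, Fnta at -1.99, was below, beside 24.0% and 16.0% of all genes.

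Genes with the profile nearest to Krt8 and to Ina were found from 4 measures (RNA and RPF log2 ratio, siCtrl TE level and CLIP over RNA), each divided by its SD over all genes. Nearest to Krt8 were Arl3, a small GTPase of cilia, at a distance of 1.14, the thioredoxin reductase Txnrd3 at 1.16 and the asparagine synthetase Asns at 1.19. Nearest to Ina were the transcription factors Mycn at 1.76 and Dmrt1 at 1.99, with the synaptic protein Clstn3 between them at 1.87. These distances rest on 1 library a condition and 2 CLIP replicates.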

How the data were processed

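The authors deposited 1 table of raw read counts per transcript region for each RNA and RPF library and raw counts of reverse transcription stops for both CLIP libraries, as the file headers name them. Their log2 RPM, log2 translation efficiency and log2 CLIP enrichment were also deposited, and the last 2 served as alternatives. Reads were processed with cutadapt and Bowtie2 on mm9, per the submitters' processing notes. Versions, the counting tool, strand handling and the handling of multi-mapping reads are not given in the sources used here.

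Of 6535 rows, 3 repeated symbols were dropped, keeping the row with the higher mean RNA count. Each gene holds 151 or more CDS reads in all 4 RNA and RPF libraries, so genes below that level are not analysed here, and the floor of 64 mean reads removed 0. Log2 ratios of siPKM over siCtrl used CDS counts plus 0.5, scaled to library sums and centred on the median gene. The shifts removed were 0.05 in RNA, 0.02 in RPF and 0.00 in TE. Intervals of ratios are exact (Clopper-Pearson on the split of both counts), those of TE are normal on the log scale, those of shares are Clopper-Pearson and those of CPM and stops are exact Poisson. They cover counting error only, because amplified reads need not be independent molecules and no use of molecular identifiers is given in the sources used here. CLIP over RNA used stops and siCtrl RNA reads of the whole transcript plus 0.5, and the limit of a 0 is 3 counts. The labels do not say whether the CLIP replicates are separate cultures, and their spread may be technical. Ratios, intervals and calls were tested on simulated data.

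The members and the 11 gene lists (6 of linked proteins, 5 of markers) were chosen with earlier results of these data known. The rule for named genes took all members, the targeted gene, from each list of linked proteins the 2 highest and 2 lowest in RPF and every gene called in RNA or RPF, and the 3 genes nearest in profile to the members with the highest and lowest RPF ratio. The markers, Macf1 (called in TE alone) and Nup88 (the lamina partner below RNA in CLIP) were named after their values were seen. TE calls of the actin list are not reported here. Python 3.11.15, scipy 1.17.1, edgeR 4.0.16 and DESeq2 1.42.0 (scaling factors only) were used.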

Additional observations from a re-analysis of the deposited data

How the results depend on the processing

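In RNA and RPF, all 126 values of the 8 members under the scaling (TMM, DESeq2 size factors, library sum), pseudocount, region and floor alternatives kept the sign of the reported value. The floor had removed 0 genes, so the values without a floor repeat the reported ones and could not differ. Krt8 ranged from 0.58 to 0.71 in RNA and from 0.87 to 0.94 in RPF, Ina from -0.88 to -0.76 and from -1.24 to -1.22, and Nes from -0.54 to -0.49 and from -0.73 to -0.70. With 5 reads added, 0 members were called higher in RNA. Genes called in TE over the whole table numbered 12 higher and 54 lower, but 6 and 29 with whole transcript reads and 5 and 35 with a floor 4 times higher, which leaves 5434 genes and 7 members, without Krt18. With siPKM RNA as the denominator 1 member was at least 2-fold above RNA in CLIP, and with 5 counts added 2 were below. Leaving out CLIP replicate 1 or 2 gave 4 members below and 0 above, and over all genes 1306 to 1367 below and 1767 to 1804 above. TE of Lmnb1 ranged from -0.03 to 0.03 and so lay on both sides of 0. Of the tubulin list, 1 gene was called lower in RPF under TMM scaling and with the higher floor, against 2, since Tubb3 dropped out. Tubb3 also dropped out in RPF with the library sum, with 5 reads added and under both region alternatives. The cause of these differences was not tested, except that the floor removes genes. The authors' deposited log2 TE and log2 enrichment, added after the data were seen, gave the same counts of members called, 0 in TE, 0 above and 4 below in CLIP. No paired analysis was possible because each siRNA condition has 1 library of each kind. Low read counts limit the keratins, Ina, Nes and Lmna, and stops limit CLIP of the keratins.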

Other observations

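The actin and microtubule systems were listed for comparison. Of 27 symbols of actins and actin-binding proteins, 23 were in the table, with medians of 0.11 in RNA, 0.03 in RPF and -0.00 in TE. In RNA 2 were called higher and 0 lower, and the same counts held in RPF, beside 2.88% and 1.24% of all genes in RNA and 2.66% and 1.53% in RPF. The called genes were the calponin Cnn3, at 0.68 (0.61 to 0.75) in RNA and 0.63 (0.58 to 0.67) in RPF, and transgelin 2 (Tagln2), at 0.61 (0.47 to 0.75) in RNA and 0.62 (0.56 to 0.69) in RPF. Lowest in RPF were Plec at -0.49 and the tropomyosin Tpm2 at -0.47 (-0.69 to -0.25). In CLIP, 8 of the 23 were at least 2-fold above RNA in both replicates and 3 below, beside 24.0% and 16.0% of all genes.

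Of 24 tubulin and microtubule symbols 13 were in the table, with medians of -0.08 in RNA, -0.07 in RPF and 0.04 in TE. In RNA 2 of the 13 were called lower and 0 higher, beside 1.24% and 2.88% of all genes. The same counts held in RPF, beside 1.53% and 2.66%. The called genes were lower in RNA and RPF: stathmin (Stmn1), which binds free tubulin, at -0.75 (-0.85 to -0.66) and -0.68 (-0.74 to -0.62), and the neuronal tubulin Tubb3 at -0.64 (-0.78 to -0.50) and -0.59 (-0.70 to -0.48). The RPF value of Tubb3 is at the edge of 1.5-fold, and its call was lost under TMM scaling, at -0.58, and with the higher floor, at -0.57. It was also lost with the library sum without centring, at -0.56, and with 5 reads added, at -0.58. The same held with the first 15 and last 5 codons included, at -0.58, and with whole transcript reads, at -0.575. The dynein heavy chain Dync1h1 was highest in RPF at 0.16 (0.12 to 0.19), then the microtubule polymerase Ckap5 at 0.10 (0.05 to 0.14). In TE 0 of 13 were called, beside 0.184% of all genes called higher and 0.827% lower. In CLIP 0 of the 13 were at least 2-fold above RNA in both replicates and 3 below, beside 24.0% and 16.0% of all genes.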
